A study of Hydractinia symbiolongicarpus with 45 samples.

Results

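HyS0101.18 is a gene model of *Hydractinia symbiolongicarpus*, a colonial marine hydrozoan of the phylum Cnidaria, that the study gives as a predicted ammonium transporter from its protein similarity to animal proteins. It is 1 of 22022 protein-coding gene models in the count table and was picked by its identifier, across all 45 libraries of the series. Its coding length was 1293 bases, which is 431 codons with the stop, and the part before the point in the identifier stands for scaffold HyS0101. The function rests on that similarity alone, and other ammonium transport genes were not analysed here, since the counts carry no gene names. Proteins of the ammonium transporter family sit in cell membranes and let ammonium or ammonia cross them. Ammonia is the main waste product of protein breakdown in most aquatic invertebrates, and ammonium is also a nitrogen source for cells that can assimilate it. In early animal embryos, RNA stored in the egg directs the first cleavages, and transcription from the embryonic genome starts later.

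All samples were wild type whole eggs, embryos or larvae, raised from gametes of a pair of breeder colonies, and each library was made from the pooled individuals of 1 collection. The letters A to G name collection groups, called clutches here. Unfertilized eggs were taken from A, C and D. Untreated embryos came from A at 0.5 and 1 h.p.f. (hours post fertilization), from A and C at 2, 3 and 4 h.p.f., from B at 5 and 6 h.p.f. and from B at 7 h.p.f., where poly(A)+ libraries also had D. Larvae at 24, 48 and 72 h.p.f. came from clutches E and F. Treated embryos came from clutches D and G, received either 20 µM Triptolide in 0.5% DMSO or 0.5% DMSO alone from 0.5 h.p.f., and were collected at 7 h.p.f. Triptolide is an inhibitor of RNA polymerase II, the enzyme that makes messenger RNA, and DMSO is its solvent. The 25 poly(A)+ libraries were made from transcripts selected on their tail, and the 18 rRNA-depleted ones from total RNA after removal of ribosomal RNA, tailed or not. Larvae have poly(A)+ libraries only. Another 2 libraries are a pilot at 1 h.p.f., one of them poly(A)+ and one unselected, and entered no comparison. Clutches changed with the stage, so that from 5 h.p.f. on no stage shares a clutch with 4 h.p.f. Poly(A)+ libraries at 4 and 7 h.p.f. are linked only through the eggs, since clutch D has both egg and 7 h.p.f. libraries. In larvae, and in untreated rRNA-depleted embryos from 5 h.p.f. on, stage and clutch cannot be told apart when set against earlier stages. Since the gametes came from the same pair of colonies, p-values measure the spread between these collections and not between parents.

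Total counts ranged from 3107733 to 32015981 in poly(A)+ libraries and from 3503063 to 20464403 in rRNA-depleted libraries, and the clutch B libraries, with the rRNA-depleted one at 0.5 h.p.f., were among the shallowest. Levels are given in TPM, a measure of relative transcript abundance, computed from the counts and coding lengths, which allows levels of different genes to be compared per length. A histone set of 167 gene models was taken, those of scaffold HyS0385, the study's largest histone cluster, and those with counts identical to them. Histone genes elsewhere with other counts are not in this set, so it understates the share of all histones. From 4 h.p.f. on, the set took between 11.2% and 20.6% of all TPM in untreated and DMSO rRNA-depleted libraries. In poly(A)+ libraries it took at most 0.137%. Such a share lowers every other gene's TPM in the rRNA-depleted libraries. The count of HyS0101.18 was a whole number in 45 of 45 libraries and 0 other gene models had the same counts, so no sign was seen of reads shared out with another gene model.

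HyS0101.18 was near 1 TPM in the egg and through the first 3 hours. In poly(A)+ egg libraries it had 33, 18 and 22 counts, which is 1.06, 0.902 and 1.07 TPM in clutches A, C and D (mean 1.01 ± 0.0941, SD, n = 3). In rRNA-depleted egg libraries it had 18, 7 and 10 counts, or 1.25, 0.737 and 1.02 TPM (mean 1.00 ± 0.257, SD, n = 3). By level it ranked between 10988 and 11569 among all gene models in the egg libraries. At 0.5 h.p.f. it stood at 1.54 TPM in the poly(A)+ library from 44 counts and at 0.990 TPM in the rRNA-depleted library from 3 counts, where the exact Poisson interval of the count at 95% runs from 0.619 to 8.77. At 1 h.p.f. the values were 1.28 TPM (42 counts) and 1.60 TPM (18 counts). Of the 2 h.p.f. samples, the poly(A)+ libraries held 0.865 TPM (clutch A) and 1.26 TPM (clutch C), and the rRNA-depleted ones had 1.13 and 0.848 TPM. At 3 h.p.f. the poly(A)+ values were 0.834 and 1.32 TPM and the rRNA-depleted values 0.951 and 1.22 TPM. Libraries at 2 and 3 h.p.f. overlapped with the egg libraries in both types. These intervals cover counting error only. In a bulk library, fewer cells with a transcript and less of it in each cell cannot be told apart.

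The study singled the gene out by its level at 4 h.p.f., so its difference from the egg in untreated embryos up to 7 h.p.f. is described here without a test. At 4 h.p.f. it had 2564 counts in clutch A and 110 in clutch C in poly(A)+ libraries, which is 84.1 and 6.07 TPM. The rRNA-depleted libraries of the same samples had 1695 and 102 counts, or 85.2 and 9.50 TPM. All 4 libraries lay above every egg library and every library up to 3 h.p.f. The mean level was 44.6 times the egg mean with poly(A)+ selection and 47.2 times after rRNA depletion, but such means stand for neither clutch. On the log2 scale of the edgeR fit, the difference from the egg was 5.51 (SE 0.67) with poly(A)+ selection and 5.98 (SE 0.85) after rRNA depletion. Without the clutch A library at 4 h.p.f. it was 2.43 and 3.41. Without the clutch C library it was 6.37 and 6.83.

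**Figure D1:**
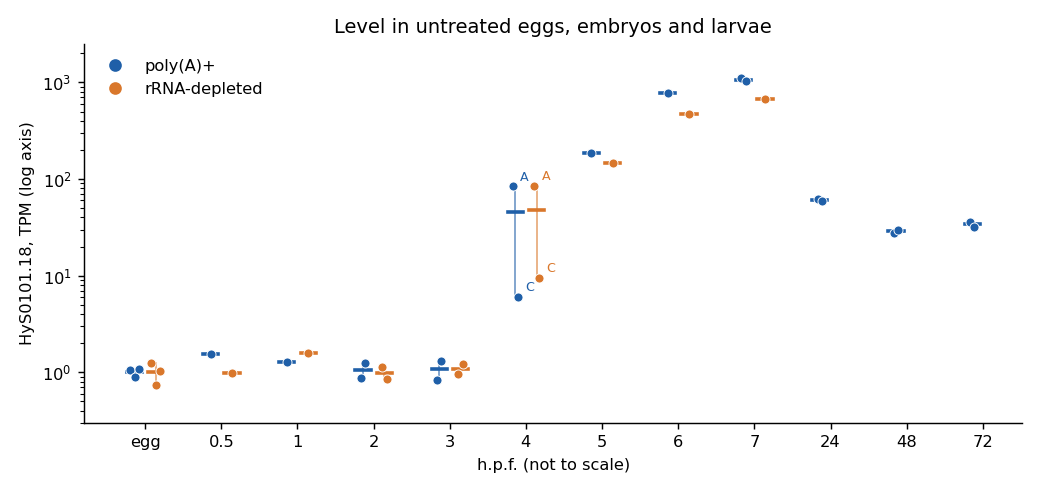
HyS0101.18 in each untreated library, in TPM on a log axis, by stage (hours post fertilization, not to scale). Points are libraries, horizontal bars are means and thin lines join the lowest and highest library. Levels stayed near 1 TPM to 3 h.p.f., spread from 6.07 to 85.2 TPM between clutches C and A at 4 h.p.f., reached 1106 TPM at 7 h.p.f. and lay between 27.9 and 62.2 TPM in larvae.

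The clutches differed at 4 h.p.f. more than at any earlier stage. The TPM in clutch A divided by that in clutch C was 13.9 with poly(A)+ selection and 8.96 after rRNA depletion at 4 h.p.f. In the egg and at 2 and 3 h.p.f. the same ratio was 1.17, 0.687 and 0.631 with poly(A)+ selection and 1.70, 1.34 and 0.781 after rRNA depletion, each from 33 or fewer counts a library. Over all gene models with at least 10 counts in both clutches, the middle 90% of ratios at 4 h.p.f. ran from 0.645 to 1.41 with poly(A)+ selection (median 0.917) and from 0.519 to 1.37 after rRNA depletion (median 0.818). A class of these lay outside the histone set, under 2 TPM in the egg mean and at 5 TPM or more in either clutch. Gene models with identical counts were taken once. A gene model could enter the class through the clutch where it was high alone, which widens the ratios. The shares below are thus a description only. In this class 52 of 61 (85.2%) were higher in clutch A with poly(A)+ selection (median ratio 3.26). After rRNA depletion 83 of 93 (89.2%) were (median 2.53). Counting HyS0101.18 itself, 6 and 3 had a ratio at least as high. The study names 5 other non-histone gene models as strongly activated by 4 h.p.f., and all 5 were also higher in clutch A in both types. HyS0062.47, a predicted forkhead-box transcription factor, had ratios of 18.1 and 8.06, and HyS0057.112, a predicted homolog of the zinc finger factor Sp5, had 6.17 and 3.49. The retrovirus-related reading frames HyS4714.1, HyS4716.1 and HyS4654.1 had ratios between 2.83 and 5.44. These reading frames and HyS0057.112 had estimated counts at 4 h.p.f. that were not whole numbers. Reads may thus be shared out with other gene models, and the 5 cannot be taken as separate cases. The difference between clutches in HyS0101.18 was seen in both library types, which were made from the same 2 samples and are not independent. With 1 sample per clutch it has no replicate. How far each sample had developed when it was frozen was not tested.

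**Figure D2:**
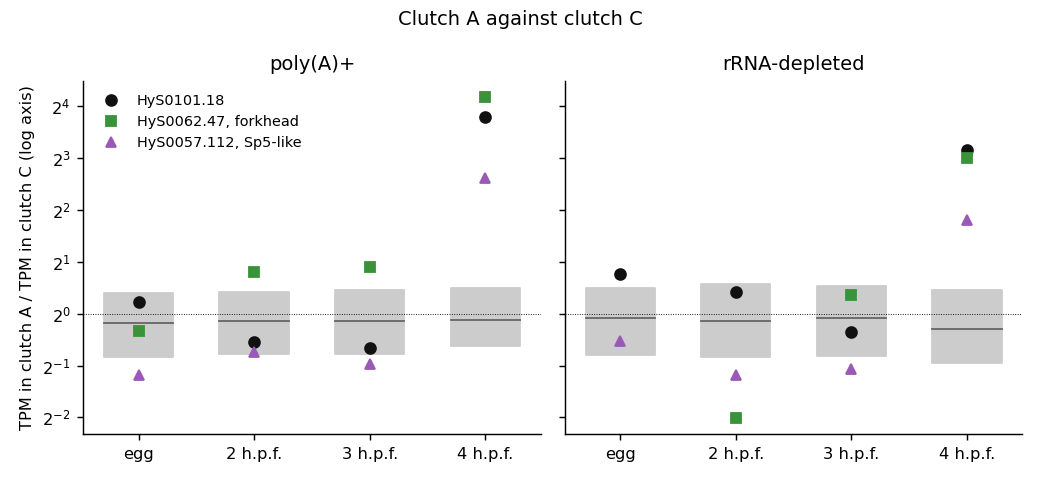
TPM in clutch A divided by TPM in clutch C (log axis) at the stages both clutches cover, in poly(A)+ (left) and rRNA-depleted libraries (right). Grey boxes span the middle 90% of all gene models with at least 10 counts in both clutches, with their median as a line, and a gene has no point where clutch C had 0 counts. At 4 h.p.f. HyS0101.18 stood at 13.9 and 8.96, outside the boxes. Of gene models under 2 TPM in the egg and at 5 TPM or more in either clutch, 85.2% and 89.2% were higher in clutch A. Such gene models could enter through the clutch where they were high alone.

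At 5, 6 and 7 h.p.f. the level was higher again. The clutch B libraries had 187, 786 and 1106 TPM with poly(A)+ selection and 146, 469 and 679 TPM after rRNA depletion, and the clutch D poly(A)+ library at 7 h.p.f. had 1030 TPM from 17414 counts. Within clutch B the level at 6 h.p.f. was thus 4.20 times that at 5 h.p.f. with poly(A)+ selection and 3.22 times after rRNA depletion. At 7 h.p.f. HyS0101.18 ranked 82 and 95 among all gene models in the poly(A)+ libraries of clutches B and D and 202 in the rRNA-depleted library. The comparison with 4 h.p.f. was tested, although it shares the libraries by which the study singled the gene out. From 4 to 7 h.p.f. it rose by 4.50 on the log2 scale in poly(A)+ libraries (SE 0.68, adjusted p = 7.18e-05, edgeR quasi-likelihood test, Benjamini-Hochberg over 18928 genes), where 16.6% of genes were called higher. In rRNA-depleted libraries it rose by 3.71 (SE 0.77), from clutches A and C at 4 h.p.f. to 1 library of clutch B at 7 h.p.f. Stage and clutch cannot be told apart there, and the SE borrows the spread of other stages. Both 7 h.p.f. poly(A)+ libraries were above both 4 h.p.f. libraries. With clutch as a replicate block the poly(A)+ rise was 4.82 with an adjusted p of 0.0555, so the call was lost. Without the clutch A library at 4 h.p.f. the rise was 7.52 with poly(A)+ selection and 6.38 after rRNA depletion, and without the clutch C library it was 3.57 and 2.86.

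In larvae the transcript was well below its 7 h.p.f. level and well above the egg. The 24 h.p.f. libraries of clutches E and F had 1101 and 1000 counts, which is 62.2 and 59.3 TPM (mean 60.7 ± 2.06, SD, n = 2). Both had lower values of 27.9 and 29.9 TPM at 48 h.p.f. The values were 36.3 and 31.8 TPM at 72 h.p.f. From 7 to 24 h.p.f. the gene fell by 3.60 on the log2 scale (SE 0.65, adjusted p = 1.29e-04), where 22.4% of genes were called lower, and the mean at 24 h.p.f. was 5.69% of the untreated 7 h.p.f. mean. Against the egg it was 6.41 higher on the log2 scale at 24 h.p.f. (SE 0.68, adjusted p = 1.53e-07) and 6.03 higher at 72 h.p.f. (SE 0.68, adjusted p = 2.94e-07). Such a direction was common, since 48.0% and 48.2% of genes were called higher than the egg at these stages. On this scale the median gene also stood 0.76 and 0.77 above the egg. In mean TPM, HyS0101.18 was at 60.1 and 33.7 times the egg, against fitted folds of 85.2 and 65.5. The scales differ for the fall from 7 h.p.f. too, which was fitted at 12.1-fold. The egg libraries also entered the study's choice of the gene. Between 24 and 48 h.p.f. the difference was -0.78 (SE 0.60, 95% interval -2.05 to 0.49, adjusted p = 0.441), against 16.5% of genes called in either direction. The 2 larval groups, of 2 libraries each, did not overlap, and the call depended on which libraries set the spread. Of 16 alternatives, 13 made no call. With larval libraries of these 2 stages alone the difference was -0.79 with an adjusted p of 0.0361, where 13.9% of genes were called. Without clutch A or clutch C in the fit it was -0.79 in both cases with edgeR adjusted p of 0.0058 and 0.00827, where 16.6% and 15.1% were called. Leaving out these clutches was chosen after seeing the data. Between 48 and 72 h.p.f. the difference was 0.40 (SE 0.61, 95% interval -0.87 to 1.68, adjusted p = 0.915), against 1.48% of genes called. Ordered by mean TPM, the poly(A)+ stages ran from the egg, 2 and 3 h.p.f., 1 and 0.5 h.p.f. through 48, 72, 4, 24, 5 and 6 h.p.f. to 7 h.p.f. The first 5 of these overlapped or stood on single libraries, and the 4 h.p.f. libraries enclosed the values of all larval stages.

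The study gave Triptolide to learn if the start of embryonic transcription sets off the breakdown of maternal mRNA. HyS0101.18 was near 1 TPM in the egg, and its values at 7 h.p.f. are compared here between Triptolide and DMSO embryos. In poly(A)+ libraries HyS0101.18 had 16780 and 24628 counts with DMSO in clutches D and G, or 1018 and 1133 TPM, and 19 and 19 counts with Triptolide, or 1.08 and 1.13 TPM. In rRNA-depleted libraries it had 587 and 735 TPM with DMSO and 1.51 and 0.554 TPM with Triptolide, the latter from 15 and 5 counts. The groups did not overlap in either type, and the DMSO mean was 972 times the Triptolide mean with poly(A)+ selection and 641 times after rRNA depletion. The fall on the log2 scale was -9.96 in poly(A)+ (SE 0.92, adjusted p = 3.42e-07), where 18.9% of genes were called lower, and -9.45 in rRNA-depleted libraries (SE 1.06, adjusted p = 9.56e-05), where 14.5% were called lower. By the size of the fitted fall it ranked 89 among 18928 and 66 among 15944 genes. The test of the difference between library types gave -0.35 (SE 1.58, 95% interval -3.59 to 2.90, adjusted p = 1), with 3.52% of genes called in either direction. Under DMSO the level was close to the untreated one. In clutch D the poly(A)+ values were 1030 TPM untreated and 1018 TPM with DMSO. The groups differ in clutch beyond that. The DMSO libraries are from D and G, and the untreated ones from B and D with poly(A)+ selection and from B alone after rRNA depletion, where solvent and clutch cannot be told apart. The fitted log2 difference of DMSO from untreated embryos was 0.08 (SE 0.59, 95% interval -1.15 to 1.31, adjusted p = 1) in poly(A)+ and -0.15 (SE 0.78, 95% interval -1.86 to 1.56, adjusted p = 0.993) in rRNA-depleted libraries, where 0.0211% and 0.00627% of genes were called.

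With Triptolide the level at 7 h.p.f. lay close to that of the egg, whose libraries also entered the study's choice of the gene. The mean was 1.11 TPM ± 0.0316 (SD, n = 2) in poly(A)+ libraries against 1.01 in the egg, and 1.03 TPM ± 0.675 (SD, n = 2) in rRNA-depleted libraries against 1.00. The log2 difference from the egg was 0.13 in poly(A)+ (SE 0.91, 95% interval -1.77 to 2.04, adjusted p = 1), where 29.4% of genes were called in either direction, and 0.09 in rRNA-depleted libraries (SE 1.54, 95% interval -3.30 to 3.49, adjusted p = 1), where 23.4% were called. Few reads stood behind each value, and a small change could not be detected at this depth and spread. The spread depended on the libraries in the fit. Without clutch A or clutch C the SE was 0.27 in both cases in poly(A)+, and 0.60 and 0.46 in rRNA-depleted libraries. With only the Triptolide and egg libraries in the fit, the differences were 0.13 (SE 0.37) and 0.01 (SE 0.64). The 5 other gene models named by the study all fell with Triptolide against DMSO. Their edgeR adjusted p lay between 1.33e-07 and 6.95e-05 with poly(A)+ selection and between 6.81e-05 and 4.80e-04 after rRNA depletion. Of all genes, 18.9% and 14.5% were called lower. The study had named the 5 for their activation in embryos of this series, so they are not a free choice of genes. Against the egg the 5 parted. HyS0062.47 and HyS0057.112 did not pass the test, with log2 differences of 0.41 and 0.33 in poly(A)+ (adjusted p = 1 and 0.942) and of 0.44 and -0.22 in rRNA-depleted libraries (adjusted p = 1 and 0.914). The 3 retrovirus-related reading frames passed it in both types. HyS4714.1 with Triptolide was above the egg by 2.90 in poly(A)+ (SE 0.74, adjusted p = 0.00507) and by 4.04 in rRNA-depleted libraries (SE 0.76, adjusted p = 0.0027), at 1.26 and 12.7 TPM against 0.172 and 0.793 TPM. Whether these genes differ from HyS0101.18 in their response was not tested.

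**Figure D3:**
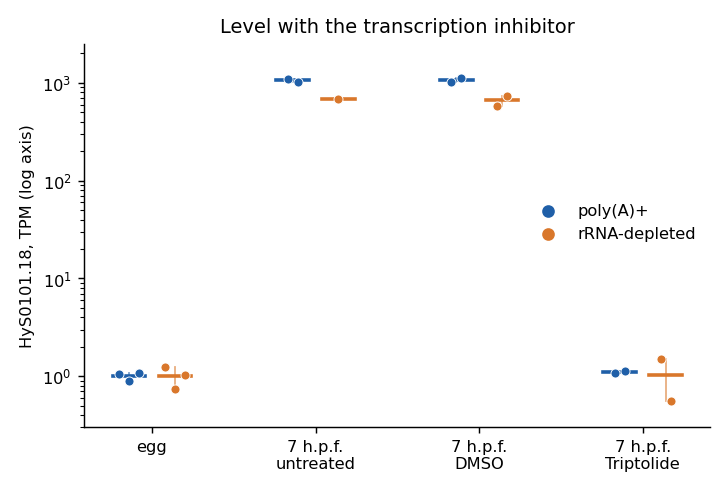
HyS0101.18 in eggs, untreated embryos and embryos treated with DMSO or Triptolide, all embryos at 7 h.p.f., in TPM on a log axis. Points are libraries, horizontal bars are means and thin lines join the lowest and highest library. Triptolide libraries lay between 0.554 and 1.51 TPM, around the egg libraries (0.737 to 1.25 TPM), and the untreated and DMSO libraries between 587 and 1133 TPM.

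Poly(A)+ and rRNA-depleted libraries of the same sample gave the gene's share in RNA with a tail against all RNA. In the 18 pairs, the poly(A)+ TPM divided by the rRNA-depleted TPM lay between 0.763 and 1.56 up to 3 h.p.f., where counts were low. At 4 h.p.f. the ratios of clutches A and C were 0.987 and 0.639, below the median of all gene models in the same pairs (1.18 and 1.12). At 5, 6 and 7 h.p.f. in clutch B the ratio was 1.29, 1.68 and 1.63, and with DMSO 1.73 and 1.54, above the medians of 0.963 to 1.13. Of all gene models with at least 10 counts in both libraries of a pair, 38.0% and 18.7% had a lower ratio in clutches A and C at 4 h.p.f. In clutch B 62.6%, 82.1% and 81.2% did at 5, 6 and 7 h.p.f., and 89.3% and 84.2% did in the DMSO pairs. The pairs of clutch A at 4 h.p.f. and of clutch B at 5 h.p.f. thus lay within the middle 50% of gene models. With the histone set left out of both totals the ratios at 4 h.p.f. were 0.795 and 0.567, against medians of 0.961 and 0.994. At 5, 6 and 7 h.p.f. they were 1.02, 1.36 and 1.32, against 0.864, 0.824 and 0.920. In the fit over both library types the difference at 7 h.p.f. with DMSO was 0.84 on the log2 scale (SE 0.67, 95% interval -0.55 to 2.23, adjusted p = 0.409), where 27.5% of genes were called in either direction. Both DMSO pairs had the same direction, and with the sample as a replicate block the difference was 0.84 (SE 0.0959, adjusted p = 6.34e-08), so that the call was made, as it was for 39.2% of genes. With the DMSO libraries alone it was 0.74 (SE 0.12, adjusted p = 6.12e-04), where 48.7% of genes were called.

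**Figure D4:**
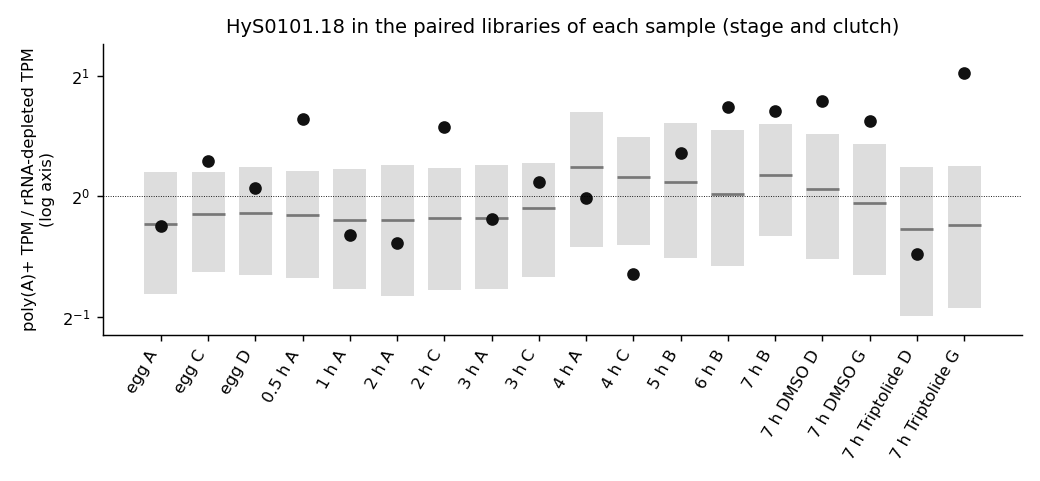
Poly(A)+ TPM divided by rRNA-depleted TPM (log axis) for HyS0101.18 (points) in the 18 pairs of libraries made from 1 sample, by stage and clutch. Grey boxes span the middle 50% of all gene models with at least 10 counts in both libraries, with the median as a line. The points lay at 0.987 and 0.639 at 4 h.p.f. and between 1.54 and 1.73 from 6 h.p.f. on, treated pairs with Triptolide apart, where at most 19 counts stood behind each value.

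The gene models whose profile was most like that of HyS0101.18 were HyS0029.17, HyS0099.20 and HyS0069.22. Likeness was Pearson's r over the 25 group means of log2(TPM + 1), each library type centred on its own mean, among 11075 other gene models that reached a group mean of 5 TPM in both types. It was 0.991, 0.988 and 0.985, and 178 gene models had an r above 0.9. The 25 points share clutches and libraries, and r is a description across stages. HyS0029.17 had 0.177 TPM in the poly(A)+ egg libraries and then means of 17.6, 379 and 65.0 TPM at 4, 7 and 24 h.p.f. Its means lay below those of HyS0101.18 at 4 and 7 h.p.f. but not at 24 h.p.f., where HyS0101.18 had 60.7 TPM. HyS0069.22 reached 26.5 TPM and HyS0099.20 reached 13.4 TPM at 7 h.p.f. Neither the counts nor the reference table used here name these 3 gene models. By Spearman's rank correlation 0 of these 3 were among the first 3, and the forkhead-box gene HyS0062.47 came first (rho 0.967), which was 17th by Pearson's r (0.977). HyS0057.112 had an r of 0.914 and the retrovirus-related reading frames 0.915 to 0.922. In poly(A)+ libraries HyS0057.112 went from 151 TPM at 7 h.p.f. to 226 TPM at 24 h.p.f., HyS0062.47 from 492 to 153 TPM, and HyS0101.18 from 1068 to 60.7 TPM.

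**Figure D5:**
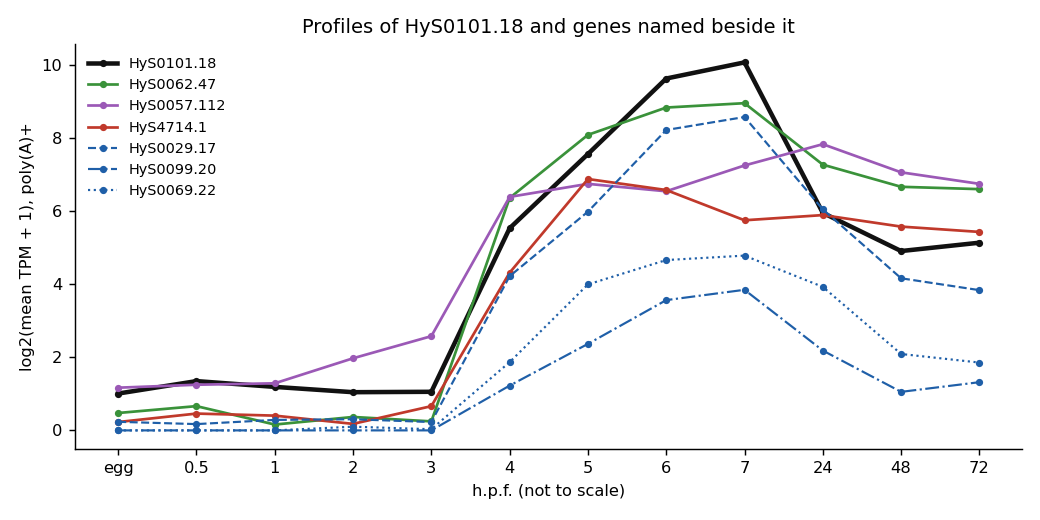
Mean level in poly(A)+ libraries as log2(TPM + 1), by stage (hours post fertilization, not to scale, 1 to 3 libraries a stage). HyS0101.18 is in black, the forkhead-box gene HyS0062.47, the Sp5-like gene HyS0057.112 and the retrovirus-related reading frame HyS4714.1 are solid coloured lines, and the 3 most similar profiles are broken blue lines. HyS0101.18 was the highest at 6 and 7 h.p.f. and fell from 1068 TPM at 7 h.p.f. to 60.7 TPM at 24 h.p.f.

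No other gene model of scaffold HyS0101 reached the level of HyS0101.18 at its peak. The scaffold carries 41 gene models, and at 5, 6 and 7 h.p.f. 0 of the 40 others had a higher mean TPM than HyS0101.18 in either library type, while 24 of 40 did in the poly(A)+ egg libraries. Of all gene models, 96.1%, 99.4% and 99.6% lay below it at these hours with poly(A)+ selection. After rRNA depletion 96.2%, 98.8% and 99.1% did, and in the poly(A)+ egg 49.6%. Few of any 40 gene models would thus stand above it at these hours, and this is no trait of the scaffold. The highest of the others lay between 107 and 185 TPM across all groups of both types. HyS0101.17 and HyS0101.19, the neighbours in number, stayed under 1 TPM in every group mean. Of the 36 others that could be tested in poly(A)+ libraries, 6 fell and 2 rose with Triptolide against DMSO (median log2 difference 0.00). That is 16.7% lower against 18.9% of all genes, and 5.56% higher against 5.04%. In rRNA-depleted libraries 3 of 29 fell and 5 rose, or 10.3% lower against 14.5% and 17.2% higher against 17.9%. Distances along the scaffold were not analysed here.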

How the data were processed

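RNA was sequenced from wild type eggs, embryos and larvae in 45 libraries. Per the study's methods, the authors trimmed reads (Trim Galore 0.6.6, cutadapt 1.15) and deposited the estimated counts that kallisto 0.46.1 gave per gene model, unnormalized and unpooled. All 22022 lengths are multiples of 3, hence coding lengths, and the 167 gene models of the histone set were left out in an alternative. Here, TPM were computed from counts and lengths. Rounded counts went into edgeR 4.0.16 under R 4.3.3 (TMM, quasi-likelihood F test, 10 or more reads summed over a fit, prior count 0.125, Benjamini-Hochberg at 0.05). Poly(A)+ libraries (25, 14 groups, 11 residual degrees of freedom, 18928 genes), rRNA-depleted libraries (18, 11 groups, 7, 15944 genes) and both together (43, 25 groups, 18, 19461 genes) were fitted apart. Stages with 1 library borrow the spread of the others. SE is the size of the fitted change over the root of F, and 95% intervals use the t quantile. In all, 15 comparisons were tested, adjusted over genes but not over comparisons, and those that share libraries are not independent.

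Alternatives were DESeq2 1.42.0, RLE or no scaling beyond library size, filterByExpr or no filter, the histone set left out, and a prior count of 2. Others were a fit of the compared groups alone, a replicate block (clutch, or sample in the joint fit), and each library left out. Leaving out clutch A or C whole, and a crossed pairing, were chosen after seeing the data. The gene, the genes named beside it and the tests were chosen with earlier results of these data known. The rule names HyS0101.18, the 5 other non-histone genes that the study names by identifier as activated by 4 h.p.f., the scaffold's gene models with the neighbours in number, and the 3 most similar profiles. Clutch letters in the labels were taken to mark shared collections and so to pair libraries. Deviations from group means of the same clutch correlated at 0.276 to 0.460 between egg and 4 h.p.f., at -0.0069 and 0.0068 between DMSO and Triptolide, at -0.279 and -0.050 between successive larval stages, and at 0.229 and 0.081 between library types with DMSO and with Triptolide (13902 genes). The tests were run on simulated counts with a fixed spread (dispersion 0.02) and no differences between clutches. That check does not cover the spread between clutches seen here. The reference table matched 0 identifiers, so no sequence is printed. Figures were drawn with matplotlib 3.10.9.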

Additional observations from a re-analysis of the deposited data

Results flagged for a closer look

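In the poly(A)+ pilot library at 1 h.p.f., which entered no comparison, HyS0101.18 had a count of 6 (0.724 TPM, exact Poisson interval of the count at 95% from 2.20 to 13.1), above the limit of 3 that a count of 0 allows. The poly(A)+ library of the main series at the same stage had 42 counts and 1.28 TPM. The unselected pilot library, with a total of 548655 counts, had 1.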

How the results depend on the processing

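Of 221 alternatives over the 15 tested comparisons, 215 left HyS0101.18 on the same side of the threshold with no called direction turned. The fall with Triptolide stayed between -10.07 and -9.83 in poly(A)+ (highest adjusted p 7.73e-05) and between -10.37 and -8.94 in rRNA-depleted libraries (highest 0.00339). With clutch as a replicate block the poly(A)+ rise from 4 to 7 h.p.f. was 4.82 (adjusted p = 0.0555, range over its alternatives 2.09e-10 to 0.0555), the change from 24 to 48 h.p.f. was -0.78 with no call, and with the sample as block the difference of library types with DMSO was 0.84 and called (adjusted p from 6.34e-08 to 0.674 over its alternatives). The block changed no other call. It could not be estimated for larvae against the egg or 7 h.p.f., nor for 2 rRNA-depleted comparisons with the 1 untreated library at 7 h.p.f. With only the compared groups in the fit, the 48 against 24 h.p.f. difference of -0.79 and the library type difference of 0.74 were called, and without clutch A or clutch C the former was called at -0.79 in both cases (adjusted p from 0.0058 to 0.65 over its alternatives). A crossed pairing of clutches E and F at 24 h.p.f. called 2076 genes higher and 1809 lower, against 1815 and 1447 with the labelled pairing. Over all genes the block called 540 higher and 993 lower from 4 to 7 h.p.f., against 3144 and 2963 without it.

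The difference of 4 h.p.f. from the egg ranged from 2.43 to 6.37 with poly(A)+ selection and from 3.41 to 6.83 after rRNA depletion when 1 library was left out, was 2.55 and 3.66 without clutch A, and 6.32 in poly(A)+ libraries without clutch C. Differences that were not called changed sign when 1 library was left out for Triptolide against the egg (-0.05 to 0.15 in poly(A)+, -0.82 to 0.61 in rRNA-depleted libraries), for DMSO against untreated embryos in poly(A)+ (-0.03 to 0.19) and for the Triptolide effect between library types (-0.86 to 0.56). On the CPM scale the DMSO level at 7 h.p.f. was 1112 and 783 times the egg level. In TPM it was 1064 and 658 times, and in TPM without the histone set 1065 and 772 times. By Spearman's correlation 0 of the 3 most similar profiles were shared. Up to 3 h.p.f. the depth limits each value to between 3 and 44 counts.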

Other observations

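At 3 h.p.f. the ratio of clutch A to clutch C was 0.631 with poly(A)+ selection and 0.781 after rRNA depletion for HyS0101.18, and for HyS0057.112 it was 0.513 and 0.476. For HyS0062.47 it was 1.87 and 1.29, from 6 or fewer counts a library. The retrovirus-related reading frames had 2.63 (HyS4714.1) and 1.03 (HyS4654.1) with poly(A)+ selection, where HyS4716.1 had 29.5 estimated counts in clutch A and 0 in clutch C, and 3.45, 2.30 and 4.04 (HyS4714.1, HyS4654.1 and HyS4716.1) after rRNA depletion. Whether the genes differ in this was not tested, and there was 1 sample per clutch.

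In the DMSO embryos at 7 h.p.f., HyS0101.18 and HyS0062.47 had group means of 1075 and 512 TPM with poly(A)+ selection and 661 and 355 TPM after rRNA depletion. HyS4714.1 had 38.5 TPM with poly(A)+ selection and 394 TPM after rRNA depletion.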
